A study of Mus musculus with 75 samples.

Results

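Cxcl1, Cxcl2 and Cxcl5 encode the neutrophil-attracting CXC chemokines described here. They were taken by gene symbol, after each deposited Ensembl identifier had been matched to its symbol, and are 3 of 45706 gene entries. Polyadenylated RNA was sequenced from C57BL/6 mouse embryonic fibroblasts, labelled as primary, that are p53-/-, crel-/- and rela-/-. All of these cells, controls included, thus lack their own RelA and c-Rel, which are NF-kB subunits, and their own p53. All carried the retroviral vector pBABE-puro. The vector was empty (EV) or encoded RelA without its transactivation domains (RelA-dTAD), RelA without the TA1 domain (RelA-dTA1) or wild-type RelA (RelA-WT). RNA was taken at 0 h, without tumor necrosis factor (TNF), and after 0.5, 1, 3 and 8 h of TNF at 10 ng/ml. EV, RelA-dTAD, RelA-dTA1 and RelA-WT had 2 libraries at each time, 1 in each of the 2 deposited sets, which is 40 libraries in all. A further 7 constructs had 1 library at each time. Set 1 held RelA-DB and RelA-dCterm. Set 2 held 3 TA2 constructs without dTA1 in their names, RelA-TA2_S467A, RelA-TA2_CI_S467A and RelA-TA2_CI, and a pair with it, RelA-TA2_CI_S467A-dTA1 and RelA-TA2_CI-dTA1. The labels do not spell out the construct names; dTAD and dTA1 are read here as the loss of both transactivation domains and of TA1, and DB, dCterm, CI and S467A are used as names. Each construct replaced RelA from a retrovirus rather than from its own gene. Cells were serum-starved overnight in 0.5% serum first. Libraries without TNF exist at 0 h alone, and a change against 0 h therefore includes any change with time.

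CXC chemokines with a Glu-Leu-Arg motif before the CXC cysteines attract neutrophils through the receptor CXCR2. Mouse Cxcl1 (KC) and Cxcl2 (MIP-2) are classic early targets of NF-kB in stimulated fibroblasts and macrophages, and their mRNAs are short-lived because AU-rich elements recruit decay factors. Cxcl5 (LIX) is made by fibroblasts and epithelial cells, and is induced by TNF and IL-17. RelA binds kB sites through its Rel homology domain and activates transcription through the C-terminal domains TA1 and TA2.

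The 3 genes lie in 1 chemokine cluster, on the plus strand of mouse chromosome 5 (mm10). Cxcl5 (ENSMUSG00000029371.7) spans chr5:90759360-90761624, Cxcl1 (ENSMUSG00000029380.11) chr5:90891241-90893115 and Cxcl2 (ENSMUSG00000058427.8) chr5:90903871-90905938. The deposited tables counted reads over 1863 bases of Cxcl5, 1875 of Cxcl1 and 2068 of Cxcl2. For Cxcl1 and Cxcl2 this is the whole gene as 1 block, so reads within introns were counted too. Of the 50-base sequences in annotated transcripts, none of Cxcl1 or Cxcl5 occurred in those of the other members or of Cxcl3. Of the Cxcl2 sequences 5.84% also occurred in Cxcl3, so that part of the Cxcl2 reads is uncertain. The promoters of Cxcl1 and Cxcl2 are shown to set their kB matches side by side, and that of Cxcl5 was not analysed here. The lines below give the 250 bases before the RefSeq transcription start (GRCm38.p6, plus strand, 5′ to 3′), Cxcl1 at chr5:90890995-90891244 and Cxcl2 at chr5:90903649-90903898. Capitals mark bases that match the kB consensus, and the matches found in each promoter lie within the run in capitals.
Cxcl1: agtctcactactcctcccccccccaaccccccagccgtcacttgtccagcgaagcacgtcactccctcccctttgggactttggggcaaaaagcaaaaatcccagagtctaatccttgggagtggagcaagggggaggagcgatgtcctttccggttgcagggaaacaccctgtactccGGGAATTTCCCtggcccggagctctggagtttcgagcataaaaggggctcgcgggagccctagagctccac
Cxcl2: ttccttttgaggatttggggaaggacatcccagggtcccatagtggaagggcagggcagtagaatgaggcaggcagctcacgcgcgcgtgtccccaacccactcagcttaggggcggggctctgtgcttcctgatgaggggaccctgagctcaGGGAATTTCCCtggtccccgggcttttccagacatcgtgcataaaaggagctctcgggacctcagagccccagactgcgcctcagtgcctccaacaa
The run in capitals was the same 11 bases, GGGAATTTCCC, in both promoters. It lay at bases -71 to -61 from the start of Cxcl1 and at -97 to -87 from that of Cxcl2. The promoter of Cxcl3, their neighbour and close relative, held the same run at -73 to -63. On both strands, the kB consensus was found in 3.9% of 32851 promoter windows of the same length, and this run in 0.0426% of them. The AP-1 motif TGANTCA was in 6.75% of the windows and in neither of these promoters. These matches describe letters in a window and not bound sites.

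Between 4422396 and 6915919 reads were assigned to genes per library of set 1, and between 10440202 and 22908738 per library of set 2. Rela reads were at 15.5 to 29.6 CPM (reads scaled to a common library size) in the EV libraries and at 524 to 6717 in the libraries with a RelA construct. At 8 h Rela was at 1461 and 1770 CPM in RelA-WT (sets 1 and 2), 1759 and 2617 in RelA-dTA1 and 3907 and 6717 in RelA-dTAD. At 0.5 h in set 1 it was at 542 in RelA-dCterm, 726 in RelA-DB and 1180 in RelA-WT. Rela reads were thus not equal between constructs. They measure RNA and not protein, and were not scaled for bases that shortened constructs lack. The part of these differences in the levels below was not tested. Fibroblast markers summed to 29603 to 43719 CPM, against 0 to 0.465 for neutrophil, 1.60 to 5.81 for macrophage, 2.40 to 13.7 for epithelial and 30.0 to 60.8 for endothelial markers. The neutrophil marker S100a9 had no read in any library. CPM values were scaled with TMM factors, and levels are means ± SD over 2 libraries. Changes are log2 fold changes ± SE from 1 model of all 40 libraries, tested over 13665 genes with edgeR's quasi-likelihood test and Benjamini-Hochberg adjustment. This model has no term for set. Calls gained in a fit with such a term, named a replicate block, are given with each gene. Rose, fell, higher and lower are used of tests at an adjusted p under 0.05. Fewer producing cells and less RNA per cell cannot be told apart in bulk RNA. Whether replicates came from separate cultures is not in the labels, and the tests can reflect no more than how far these libraries vary.

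Cxcl1 peaked at 0.5 h in RelA-dTA1 and RelA-WT, and was present in every library, at 4.33 to 495 CPM. Its 0.5 h level was 29.7 ± 11.5 CPM in EV, 33.1 ± 18.5 in RelA-dTAD, 149 ± 39.9 in RelA-dTA1 and 434 ± 87.5 in RelA-WT. The EV and RelA-dTAD cells made 5.38 to 9.31% of the RelA-WT level at that time and the RelA-dTA1 cells 32.4 to 35.7%, set by set. At 3 and 8 h the RelA-dTA1 libraries lay at 82.0 to 111% of RelA-WT.

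Over 0, 0.5, 1, 3 and 8 h, Cxcl1 in EV was at 7.88, 37.9, 14.3, 22.1 and 13.5 CPM in set 1, and at 4.33, 21.6, 6.40, 23.9 and 31.1 in set 2. In RelA-dTAD it was at 7.64, 46.1, 17.5, 33.1 and 27.3 in set 1, and at 5.07, 20.0, 8.96, 28.6 and 57.5 in set 2. Both sets of both constructs went up at 0.5 h and back down at 1 h, and at 8 h set 2 stood above set 1. In RelA-dTA1 the levels were 11.3, 177, 82.6, 57.0 and 81.3 in set 1, and 8.39, 120.3, 64.0, 63.5 and 83.9 in set 2. In RelA-WT they were 12.7, 495, 238, 68.5 and 99.0 in set 1, and 9.42, 372, 178, 57.3 and 85.9 in set 2. At 0.5 and 1 h, EV and RelA-dTAD lay below every RelA-dTA1 library and these below every RelA-WT library.

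**Figure D1:**
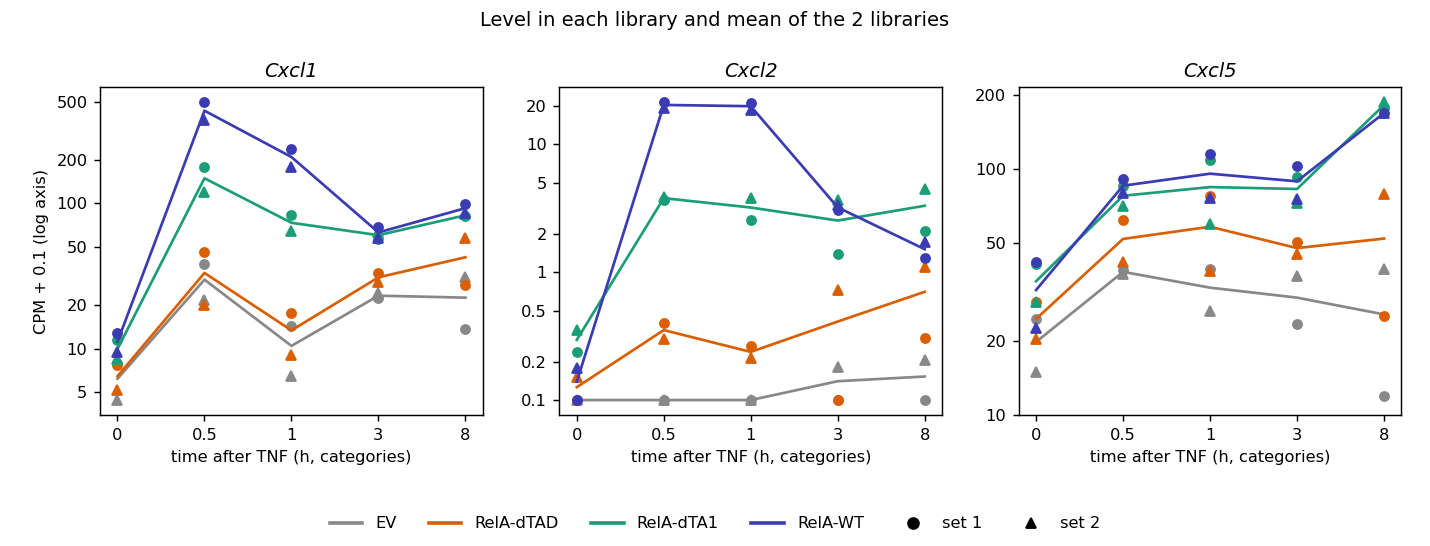
CPM + 0.1 on log axes of Cxcl1, Cxcl2 and Cxcl5 at 0, 0.5, 1, 3 and 8 h of TNF, spaced as categories. Circles are set 1 and triangles set 2, 1 library each, and lines join the means of 2 libraries. At 0.5 h RelA-WT Cxcl1 averages 434 CPM and Cxcl2 20.2, while Cxcl5 is highest at 8 h in RelA-dTA1 and RelA-WT. A point at 0.1 in the Cxcl2 panel is a library with 0 reads.

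Cxcl1 rose over 0 h at 14 of the 16 combinations of construct and TNF time. In EV it rose by 2.32 ± 0.49 at 0.5 h (edgeR adjusted p = 0.0207), 1.98 ± 0.49 at 3 h (edgeR adjusted p = 0.0214) and 2.03 ± 0.50 at 8 h (edgeR adjusted p = 0.00164). The EV change at 1 h was 0.73 ± 0.54 (edgeR adjusted p = 1). In RelA-dTAD it rose by 2.41 ± 0.48 at 0.5 h (edgeR adjusted p = 0.0128), 2.34 ± 0.48 at 3 h and 2.86 ± 0.47 at 8 h (1.84 without RelA-dTAD set 2). The RelA-dTAD change at 1 h was 1.05 ± 0.50 (edgeR adjusted p = 1). In RelA-dTA1 it rose by 3.96 ± 0.46, 2.94 ± 0.45, 2.68 ± 0.45 and 3.12 ± 0.45 at the 4 times, with edgeR adjusted p of 1.55e-04 or less. In RelA-WT it rose by 5.33 ± 0.48 at 0.5 h (edgeR adjusted p = 3.92e-08), 4.27 ± 0.46 at 1 h, 2.55 ± 0.45 at 3 h and 3.10 ± 0.45 at 8 h. It then fell between 1 and 3 h in RelA-WT, with a change of -1.72 ± 0.40 (edgeR adjusted p = 0.00448, and 4.59% of all genes fell).

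Leaving out 1 set leaves a construct with 1 library per time, and a call can then be lost though its log2 change hardly moves. Lost calls, here and for the other genes, are thus not by themselves a difference between sets. In EV, the call at 0.5 h was lost without set 1 (log2 change 2.31, edgeR adjusted p = 0.41) or set 2 (2.28, 0.531), that at 3 h without set 1 or set 2 (0.105 and 0.436), and that at 8 h without set 2 (0.83, 0.402). In RelA-dTAD, that at 0.5 h was lost without set 1 (1.98, edgeR adjusted p = 0.465) or set 2 (2.58, 0.126) and that at 3 h without set 1 (2.50, 0.0525) or set 2 (2.11, 0.176). In RelA-dTA1, the calls at 1 and 3 h were lost without set 2, with log2 changes of 2.88 and 2.35. The fall in RelA-WT missed the threshold without set 1 (-1.63, edgeR adjusted p = 0.193) or set 2 (-1.78, 0.116). With a replicate block, the fall in RelA-WT between 0.5 and 1 h passed as well (-1.06 ± 0.38, edgeR adjusted p = 0.288, and 0.0379 blocked).

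Against RelA-WT, Cxcl1 was lower in EV at all 4 TNF times and lower in RelA-dTAD at 0.5 and 1 h. The EV difference was -3.92 ± 0.44 at 0.5 h (edgeR adjusted p = 2.67e-06), -4.45 ± 0.48 at 1 h (edgeR adjusted p = 5.94e-07), -1.47 ± 0.42 at 3 h (edgeR adjusted p = 0.0216) and -1.98 ± 0.43 at 8 h (edgeR adjusted p = 7.85e-04). The RelA-dTAD difference was -3.77 ± 0.43 at 0.5 h and -4.07 ± 0.46 at 1 h, with edgeR adjusted p of 6.04e-06 and 1.66e-06. At 3 h it was -1.05 ± 0.41 (edgeR adjusted p = 0.15), and at 8 h -1.08 ± 0.40 (edgeR adjusted p = 0.0509), which passed with a replicate block (0.0261). Before TNF, EV cells held 6.10 ± 2.52 CPM and RelA-WT cells 11.1 ± 2.32, a difference of -0.91 ± 0.52 (edgeR adjusted p = 1). The EV call at 3 h was lost when either set of EV (edgeR adjusted p = 0.0904 without set 1, 0.086 without set 2) or of RelA-WT (0.179 and 0.0783) was left out. The RelA-dTAD difference at 8 h was -1.76 without RelA-dTAD set 2, with an edgeR adjusted p of 0.0122.

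The response itself was also compared, as the change over 0 h in the mutant minus that in RelA-WT. At 1 h this difference was -3.54 ± 0.71 for EV (edgeR adjusted p = 0.0101), where 0.578% of genes had a lower response. It was -3.22 ± 0.67 for RelA-dTAD (edgeR adjusted p = 0.0172), where 0.6% did. At 0.5 h the differences were -3.01 ± 0.67 for EV (edgeR adjusted p = 0.155) and -2.92 ± 0.66 for RelA-dTAD (edgeR adjusted p = 0.12), and both passed with DESeq2 (0.00129 and 0.00215). For RelA-dTA1 they were -1.37 ± 0.62 at 0.5 h and -1.33 ± 0.62 at 1 h (edgeR adjusted p = 1 at both). The EV call at 1 h was lost without either set of EV (edgeR adjusted p = 0.0661 without set 1, 0.145 without set 2) or of RelA-WT (0.146 and 0.211). That of RelA-dTAD was lost without RelA-dTAD set 2 (0.167) or either set of RelA-WT (0.231 and 0.336), and these edgeR fits moved the differences to between -3.71 and -3.08.

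Cxcl1 in RelA-dTA1 stood between the RelA-dTAD and RelA-WT levels early on. It was higher than in RelA-dTAD by 2.21 ± 0.41 at 0.5 h (edgeR adjusted p = 0.0132) and 2.54 ± 0.44 at 1 h (edgeR adjusted p = 0.00248). Against RelA-WT the difference was -1.55 ± 0.39 at 0.5 h (edgeR adjusted p = 0.384) and -1.52 ± 0.39 at 1 h (edgeR adjusted p = 0.157). With a replicate block both passed (0.0176 and 0.0111), and no RelA-dTA1 library overlapped the RelA-WT range at these times. At 8 h the difference was -0.16 ± 0.39, with a 95% interval of -0.98 to 0.65. The call against RelA-dTAD at 0.5 h was lost without RelA-dTAD set 2 (edgeR adjusted p = 0.213) or RelA-dTA1 set 1 (0.696) or set 2 (0.139), and that at 1 h without RelA-dTAD set 2 (0.13) or RelA-dTA1 set 1 (0.0703). At 8 h RelA-dTA1 was above RelA-dTAD by 0.92 ± 0.40 (edgeR adjusted p = 0.123), and by 1.59 without RelA-dTAD set 2 (0.0284).

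Cxcl2 had at most 1 read in any EV library and up to 257 in a RelA-WT library. No read was found in EV at 0, 0.5 or 1 h in either set, and set 2 had 1 read at 3 h and 1 at 8 h. Counts of 0 in the EV libraries allow levels of up to 0.191 to 0.698 CPM, from a floor of 3 reads per library that covers counting error only. RelA-dTAD had 0, 2, 1, 0 and 1 reads over 0, 0.5, 1, 3 and 8 h in set 1, and 1, 4, 2, 12 and 15 in set 2. RelA-dTA1 had 1, 19, 14, 7 and 10 reads in set 1, and 5, 68, 62, 52 and 82 in set 2. RelA-WT had 0, 116, 111, 15 and 6 reads in set 1, and 1, 257, 227, 34 and 21 in set 2. As levels, RelA-WT was at 20.2 ± 1.42 CPM at 0.5 h, 19.7 ± 1.75 at 1 h, 3.11 ± 0.194 at 3 h and 1.41 ± 0.299 at 8 h. RelA-dTA1 was at 3.69 ± 0.150, 3.10 ± 0.893, 2.43 ± 1.62 and 3.20 ± 1.70 at the same times. The RelA-WT libraries lay far above the RelA-dTA1 libraries at 0.5 and 1 h, and below them at 8 h.

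The RelA-WT libraries held 373 reads of Cxcl2 at 0.5 h against 1 at 0 h, a ratio of 376 (95% interval 67.0 to 14877). The ratio was 366 at 1 h (65.2 to 14481), 60.0 at 3 h (10.3 to 2418) and 28.6 at 8 h (4.72 to 1171). These intervals cover counting error only. The rise was called at each time, with edgeR adjusted p of 1.19e-07, 8.38e-08, 6.42e-05 and 0.00129. In RelA-dTA1, Cxcl2 rose by 4.02 ± 0.62 at 0.5 h, 3.81 ± 0.62 at 1 h, 3.56 ± 0.63 at 3 h and 3.92 ± 0.62 at 8 h (edgeR adjusted p of 6.50e-04 or less). In RelA-dTAD it rose at 8 h, with 16 reads against 1 at 0 h (ratio 20.6, 95% interval 3.21 to 865, edgeR adjusted p = 0.00353). In RelA-WT it then fell between 1 and 3 h, with a change of -2.65 ± 0.43 (edgeR adjusted p = 2.08e-04). Without set 2, the calls were lost in RelA-dTA1 at 0.5, 1 and 3 h (edgeR adjusted p = 0.145, 0.187 and 0.197), in RelA-dTAD at 8 h (0.328) and in RelA-WT at 8 h (0.091). The fall in RelA-WT missed the threshold without set 1 (edgeR adjusted p = 0.0523).

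Against RelA-WT, Cxcl2 in EV was at least 144-fold lower at 0.5 h and at least 109-fold lower at 1 h, by a floor of 3 reads over the group. At 3 h it was 56.5-fold lower (1 read against 49, 95% interval 9.68 to 2278) and at 8 h 20.7-fold lower (1 read against 27, 3.41 to 848). The edgeR adjusted p of the EV differences were 8.38e-08, 9.13e-08, 8.23e-05 and 0.00311. In RelA-dTAD it was lower too, and the difference was -6.39 ± 0.58 on the log2 scale at 0.5 h (edgeR adjusted p = 5.30e-07). At 1 h it had 3 reads against 338 in RelA-WT, which is 152-fold lower (51.7 to 743), and at 3 h the difference was -2.78 ± 0.58 (edgeR adjusted p = 0.00242). The calls lost without RelA-WT set 2 were those of EV at 8 h (edgeR adjusted p = 0.0643) and of RelA-dTAD at 3 h (0.0731). All 12 of the RelA-dTAD reads at 3 h were in set 2, and that difference was -2.33 without RelA-dTAD set 1. Without RelA-dTAD set 2 no RelA-dTAD read was left, and the fitted value of -7.89 is no bound. The Cxcl2 change over 0 h was compared with that in RelA-WT as well, in 12 tests over EV, RelA-dTAD and RelA-dTA1. Of these, 0 passed with edgeR, DESeq2, the replicate block or no filter on low counts. An unadjusted edgeR p under 0.05 was found for 2 in RelA-dTAD and 2 in RelA-dTA1. With 1 read in RelA-WT at 0 h, the missing calls do not show equal responses.

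Cxcl2 was lower in RelA-dTA1 than in RelA-WT at 0.5 and 1 h. The difference was -2.44 ± 0.42 at 0.5 h (edgeR adjusted p = 0.013) and -2.62 ± 0.42 at 1 h (edgeR adjusted p = 0.00312). DESeq2 gave no adjusted p for the 0.5 h difference, and 3.80e-04 for that at 1 h. At 8 h both RelA-dTA1 libraries lay above RelA-WT, at 167 and 271% of the RelA-WT library of the same set, a difference of 1.22 ± 0.49 (95% interval 0.20 to 2.25, edgeR adjusted p = 1). RelA-dTA1 was higher than RelA-dTAD at every TNF time. That difference was 3.94 ± 0.62 at 0.5 h, 2.55 ± 0.57 at 3 h and 2.17 ± 0.53 at 8 h (edgeR adjusted p = 0.00347, 0.00785 and 0.00611), with 76 reads against 3 at 1 h (ratio 27.0, 95% interval 8.91 to 134). Against RelA-WT, the call at 0.5 h was lost without set 1 or 2 of RelA-dTA1 (edgeR adjusted p = 0.259 and 0.351) or of RelA-WT (0.544 and 0.331), and that at 1 h without RelA-dTA1 set 1 (0.102) or RelA-WT set 1 or 2 (0.0915 and 0.118). Against RelA-dTAD, the calls at 0.5, 1, 3 and 8 h were lost without RelA-dTA1 set 2 (edgeR adjusted p = 0.0762, 0.053, 0.656 and 0.293), those at 0.5 and 1 h also without RelA-dTAD set 2 (0.113 and 0.103), and that at 3 h without RelA-dTAD set 1 (0.0586). Without RelA-dTA1 set 2 the difference from RelA-dTAD was 1.52 at 3 h and 1.44 at 8 h. Without RelA-dTAD set 2 it was 3.98 at 8 h, and at 3 h the fitted 7.65 is no bound, since no RelA-dTAD read was left.

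Cxcl5 was highest at 8 h in RelA-dTA1 and RelA-WT. In RelA-dTA1 it stood at 79.0 to 94.3% of RelA-WT at 0.5 and 1 h, set by set. Its 8 h level was 25.5 ± 19.3 CPM in EV, 52.0 ± 37.8 in RelA-dTAD, 182 ± 7.24 in RelA-dTA1 and 168 ± 0.169 in RelA-WT. Cxcl5 was already present before TNF, at 14.9 to 41.8 CPM in these 4 constructs. Over 0, 0.5, 1, 3 and 8 h, EV was at 24.5, 38.8, 39.2, 23.2 and 11.9 CPM in set 1, and at 14.9, 37.3, 26.4, 36.5 and 39.2 in set 2. RelA-dTAD was at 28.7, 62.0, 77.8, 50.2 and 25.2 in set 1, and at 20.2, 41.6, 38.4, 44.9 and 78.7 in set 2. At 8 h both constructs lay below their own 0 h level in set 1 and above it in set 2. RelA-dTA1 was at 40.9, 84.8, 109, 92.8 and 177 in set 1, and at 28.8, 70.5, 59.8, 72.7 and 187 in set 2. RelA-WT was at 41.8, 90.7, 115, 102 and 168 in set 1, and at 22.4, 80.0, 75.7, 75.3 and 169 in set 2. The ranges of RelA-dTA1 and RelA-WT overlapped from 0 to 3 h, and at 8 h both RelA-dTA1 libraries were above both RelA-WT libraries.

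In RelA-dTA1, Cxcl5 rose at 8 h by 2.41 ± 0.47 (edgeR adjusted p = 2.68e-04), and its change at 3 h was 1.28 ± 0.46 (edgeR adjusted p = 0.0636, blocked 0.0265). In RelA-WT it rose by 1.51 ± 0.47 at 3 h (edgeR adjusted p = 0.0271) and by 2.43 ± 0.47 at 8 h (edgeR adjusted p = 3.87e-04). Its RelA-WT changes were 1.44 ± 0.47 at 0.5 h (edgeR adjusted p = 0.41) and 1.60 ± 0.47 at 1 h (edgeR adjusted p = 0.0628, blocked 0.0298, DESeq2 0.0449). In RelA-dTAD the 8 h change of 1.17 ± 0.47 passed (edgeR adjusted p = 0.0444), but the sets went opposite ways, it was -0.19 without RelA-dTAD set 2 and 1.97 without set 1, and DESeq2 gave an adjusted p of 0.0577. No time passed in EV, where the 8 h change was 0.50 ± 0.49 (edgeR adjusted p = 0.421) and -0.99 without EV set 2. For Cxcl5 in EV, 0 of 4 times had an unadjusted p under 0.05, 0 passed with DESeq2, and 4 passed with no filter on low counts. At 8 h the fit with no filter gave nearly the same change (0.49) with a far smaller edgeR adjusted p (0.00952). The RelA-WT call at 3 h was lost without RelA-WT set 1 (edgeR adjusted p = 0.185) or set 2 (0.3). Between 3 and 8 h the RelA-dTA1 change was 1.13 ± 0.44 (edgeR adjusted p = 0.112, blocked 0.032) and the RelA-WT change 0.92 ± 0.44 (edgeR adjusted p = 0.251).

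Against RelA-WT, Cxcl5 in EV was lower at 3 and 8 h, with differences of -1.57 ± 0.47 (edgeR adjusted p = 0.027) and -2.64 ± 0.48 (edgeR adjusted p = 1.33e-04). At 1 h the difference was -1.57 ± 0.47 as well (edgeR adjusted p = 0.0748, blocked 0.0401), and before TNF -0.72 ± 0.49 (edgeR adjusted p = 1). RelA-dTAD was lower than RelA-WT at 8 h, with a difference of -1.65 ± 0.45 (edgeR adjusted p = 0.00846), and RelA-dTA1 was higher than RelA-dTAD at that time by 1.75 ± 0.45 (edgeR adjusted p = 0.00772). RelA-dTA1 differed from RelA-WT at 8 h by 0.10 ± 0.43, with a 95% interval of -0.80 to 1.01. The change over 0 h at 8 h differed from that in RelA-WT by -1.92 ± 0.68 in EV (edgeR adjusted p = 0.0509, 0.0156 without EV set 2, 0.0324 with DESeq2) and by -1.26 ± 0.65 in RelA-dTAD (edgeR adjusted p = 0.245, and a difference of -2.63 with 0.0373 without RelA-dTAD set 2). The EV call at 3 h was lost without set 1 or 2 of EV (edgeR adjusted p = 0.216 and 0.0586) or of RelA-WT (0.224 and 0.0593). Both RelA-dTAD calls were lost without RelA-dTAD set 1 (0.14 against RelA-WT, 0.143 against RelA-dTA1), and the one against RelA-dTA1 without RelA-dTA1 set 2 (0.0682). Without RelA-dTAD set 2 these differences were -2.74 for RelA-dTAD against RelA-WT and 2.84 for RelA-dTA1 against RelA-dTAD.

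Counted over the 3 genes, the members called against 0 h stood beside the share of all 13665 genes that rose. In EV, 1 of 3 rose at 0.5 h (0.402% of all genes), 0 at 1 h (0.768%), 1 at 3 h (3.02%) and 1 at 8 h (25.6%). In RelA-dTAD, 1 rose at 0.5 h (0.439%), 0 at 1 h (0.534%), 1 at 3 h (2.28%) and all 3 at 8 h (24.4%). Of those at 8 h, Cxcl5 changed by -0.19 without RelA-dTAD set 2 and missed with DESeq2 (adjusted p = 0.0577). For Cxcl2, 15 of the 16 RelA-dTAD reads at 8 h were in set 2. In RelA-dTA1, 2 rose at 0.5 h (0.615%), 2 at 1 h (1.41%), 2 at 3 h (9.58%) and 3 at 8 h (19.4%). In RelA-WT, 2 rose at 0.5 h (0.776%), 2 at 1 h (2.55%), 3 at 3 h (10.5%) and 3 at 8 h (15.8%). At 1 h, 0 of the 3 had an unadjusted p under 0.05 in EV and 2 (Cxcl1 and Cxcl5) in RelA-dTAD, and DESeq2 called 0 in both. The early counts stand against small shares of all genes and the 8 h counts against large ones.

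Against RelA-WT, the members counted as lower were likewise read beside the share of all genes that were lower. Before TNF, 0 of 3 were lower in EV (0.563% of all genes), RelA-dTAD (0.0293%) or RelA-dTA1 (0%), and of these 9 tests 0 had an unadjusted p under 0.05 and 0 passed with DESeq2. In EV, 2 were lower at 0.5 h (1.08%), 2 at 1 h (2.96%), 3 at 3 h (8.14%) and 3 at 8 h (15.2%). In RelA-dTAD, 2 were lower at 0.5 h (0.366%), 2 at 1 h (1.82%), 1 at 3 h (5.58%) and 1 at 8 h (11.5%). In RelA-dTA1, Cxcl2 was the 1 member lower at 0.5 h (0.0805%) and at 1 h (0.344%), and DESeq2 gave it no adjusted p at 0.5 h. Cxcl1 missed the threshold at both times and passed with a replicate block (edgeR adjusted p = 0.0176 and 0.0111), so the loss was not particular to Cxcl2. At 3 h (0.0293%) and 8 h (0.00732%) 0 members were lower in RelA-dTA1, also 0 with DESeq2 and 0 at an unadjusted p under 0.05. The numbers of members higher in RelA-dTA1 than in RelA-dTAD were 0 at 0 h (0.0293%), 2 at 0.5 h (0.168%), 2 at 1 h (0.556%), 1 at 3 h (3.78%) and 2 at 8 h (8.71%).

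**Figure D2:**
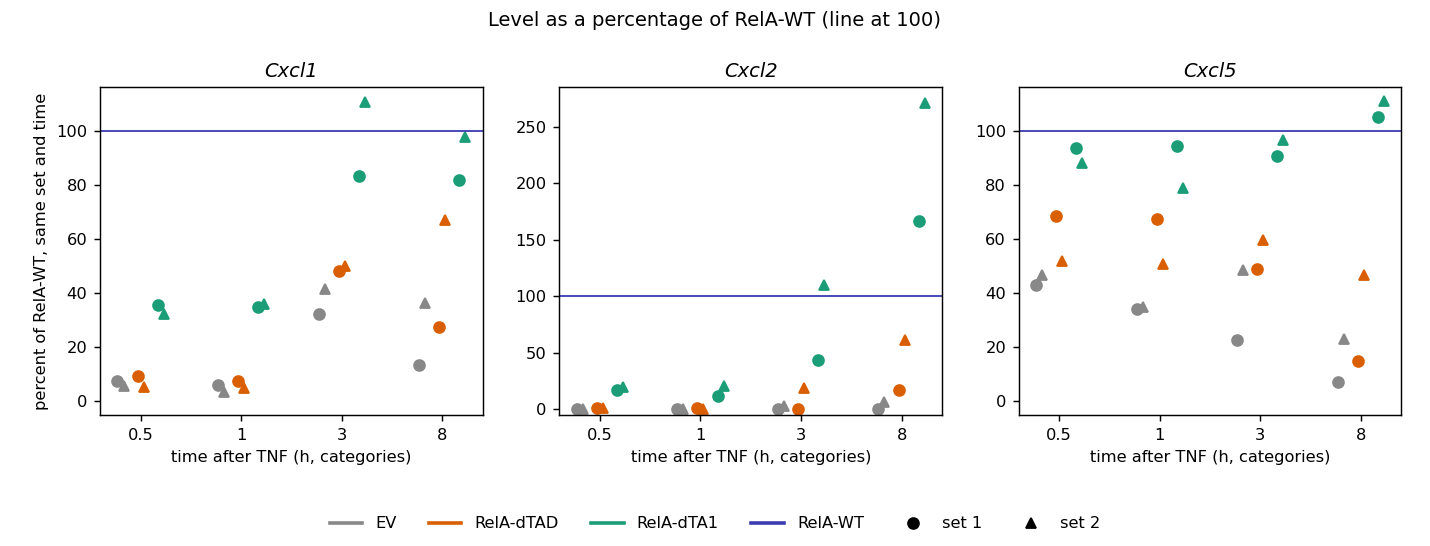
Level of Cxcl1, Cxcl2 and Cxcl5 in EV, RelA-dTAD and RelA-dTA1 as a percentage of the RelA-WT library of the same set and time, at 0.5, 1, 3 and 8 h. Circles are set 1 and triangles set 2, and the line marks 100. RelA-dTA1 Cxcl1 lies at 32.4 and 35.7% at 0.5 h and at 82.0 and 97.7% at 8 h, and RelA-dTA1 Cxcl2 at 167 and 271% at 8 h.

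RelA-dTAD was also set against EV, to see what RelA without transactivation domains added to no RelA. Of 15 tests of the members, 0 passed with edgeR, 0 with DESeq2 and 0 with the replicate block, while 0.637, 0.739, 0.432, 0.966 and 1.81% of all genes were higher over 0, 0.5, 1, 3 and 8 h. An unadjusted p under 0.05 was found for 5 of the 15, and 4 passed with no filter on low counts. For Cxcl1 at 8 h the fit with no filter gave a difference of 0.90 with an edgeR adjusted p of 5.42e-07. At 8 h, where RelA-dTAD libraries exceeded the EV library of the same set in all 3 genes, the difference was 0.90 ± 0.43 for Cxcl1 (95% interval 0.01 to 1.78, edgeR adjusted p = 0.549). For Cxcl5 it was 0.99 ± 0.47 (0.01 to 1.98, edgeR adjusted p = 0.553). Within set 1, Cxcl5 was at 25.2 CPM in RelA-dTAD and 11.9 in EV, and within set 2 at 78.7 and 39.2. The fitted Cxcl5 difference was -0.08 without RelA-dTAD set 2, where RelA-dTAD of set 1 is compared with EV of both sets. Cxcl2 at 8 h had 16 reads in RelA-dTAD and 1 in EV, a ratio of 11.1 (95% interval 1.72 to 464).

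The constructs with 1 library per time were set beside the RelA-WT library of the same set and time, with no test. Over their 84 values at TNF times, 40 were below RelA-WT by over 2-fold and 3 above it, while 5.23% of the values of all genes were that far below and 4.32% above. RelA-DB and RelA-dCterm had Cxcl1 at 30.4 and 44.0 CPM at 0.5 h, which is 6.14 and 8.87% of RelA-WT. RelA-DB had no Cxcl2 read at any time, which allows up to 0.531 to 0.738 CPM, and RelA-dCterm had 2 reads over all times. Their Cxcl5 levels at 8 h were 17.2 and 17.0 CPM, at 10.2 and 10.1% of RelA-WT. These values lie near those of EV and RelA-dTAD in set 1.

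Among the TA2 constructs, RelA-TA2_S467A stayed close to RelA-WT at 0.5, 1 and 3 h. It had Cxcl1 at 312, 162 and 59.6 CPM, which is 84.1 to 104% of RelA-WT, and Cxcl2 at 17.8, 14.5 and 3.27 CPM, 78.6 to 101%. RelA-TA2_CI had Cxcl1 at 144 and 80.7 CPM at 0.5 and 1 h (38.8 and 45.3%) and Cxcl2 at 6.18 and 5.52 CPM (32.3 and 29.9%). RelA-TA2_CI_S467A, with both changes, was at 37.4 and 34.6% for Cxcl1 and at 33.4 and 26.6% for Cxcl2. RelA-dTA1 in set 2 was at 32.4 and 35.9% for Cxcl1 at the same times. At 8 h Cxcl1 in RelA-TA2_CI and RelA-TA2_CI_S467A was at 64.4 and 92.3 CPM, against 85.9 in RelA-WT. Cxcl5 in RelA-TA2_CI was at 76.9 to 86.9% of RelA-WT over the TNF times up to 3 h and at 81.0% at 8 h, and that of RelA-TA2_S467A at 93.5 to 103% at all TNF times.

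Where the CI change was combined with the loss of TA1, the early peak was low and the 8 h level was not. RelA-TA2_CI-dTA1 had Cxcl1 at 6.18, 38.7, 13.9, 36.9 and 81.6 CPM over 0, 0.5, 1, 3 and 8 h, and RelA-TA2_CI_S467A-dTA1 had 5.78, 30.5, 13.4, 34.1 and 72.7. That is 8.20 to 10.4% of RelA-WT at 0.5 h and 84.7 to 95.1% at 8 h. Rela at 8 h was at 3850 and 3863 CPM in these constructs against 1770 in RelA-WT of set 2, and its part in their 8 h levels was not tested. Their Cxcl2 reads were 0, 6, 2, 25 and 26, and 1, 0, 5, 16 and 60, so that the highest count of each came at 8 h. The Cxcl2 level at 8 h was 135% of RelA-WT in RelA-TA2_CI-dTA1 and 234% in RelA-TA2_CI_S467A-dTA1. It was 186% in RelA-TA2_CI, 212% in RelA-TA2_S467A and 310% in RelA-TA2_CI_S467A, from 39, 67 and 79 reads against 21 in RelA-WT. The 3 values over 2-fold above RelA-WT were those of RelA-TA2_S467A, RelA-TA2_CI_S467A and RelA-TA2_CI_S467A-dTA1. In set 2 at 8 h, RelA-WT had 1.62 CPM of Cxcl2, above EV and RelA-dTAD and below the other 6 constructs. Cxcl5 in RelA-TA2_CI-dTA1 and RelA-TA2_CI_S467A-dTA1 was at 129 and 128 CPM at 8 h, 76.3 and 76.1% of RelA-WT.

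**Figure D3:**
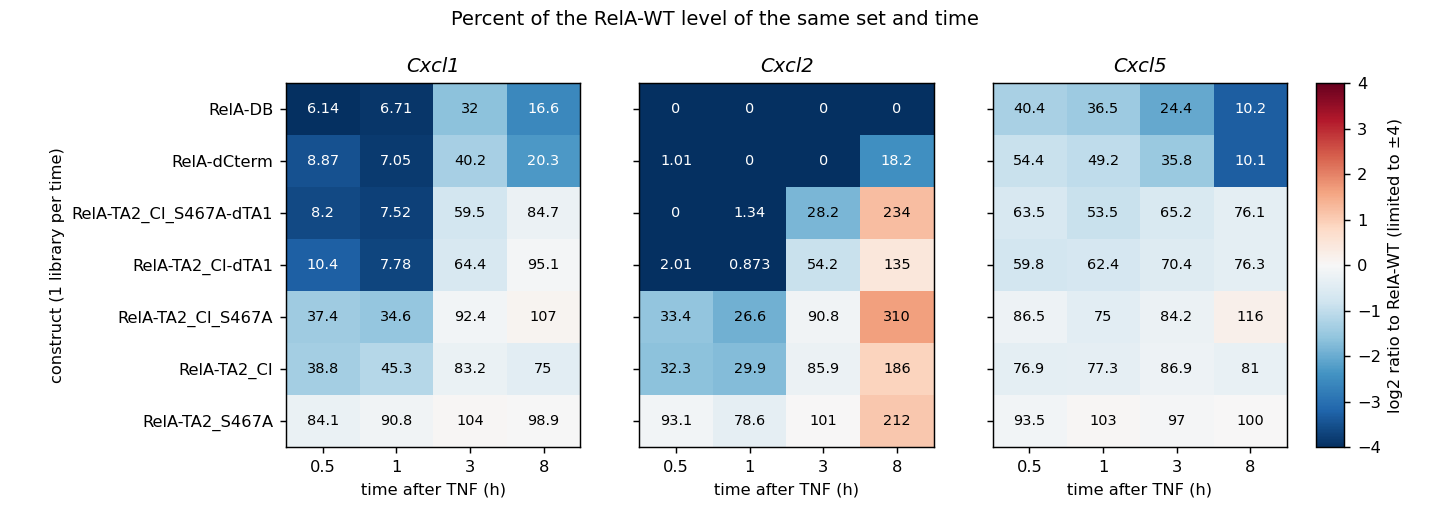
Level of Cxcl1, Cxcl2 and Cxcl5 in the 7 constructs with 1 library per time, as a percentage of the RelA-WT library of the same set, printed in each cell at 0.5, 1, 3 and 8 h. Colour is the log2 ratio to RelA-WT, limited to 4 either way. Cxcl1 in RelA-TA2_CI-dTA1 is at 10.4% at 0.5 h and at 95.1% at 8 h, and Cxcl5 in RelA-DB is at 10.2% at 8 h.

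At 8 h the 2 sets differed in EV and RelA-dTAD, and set and replicate number are the same thing here. In set 1, Cxcl5 at 8 h was 0.485-fold its 0 h level in EV and 0.878-fold in RelA-dTAD. RelA-DB and RelA-dCterm, which were in set 1 alone, stood at 0.820-fold and 0.598-fold. In the same set it was 4.32-fold in RelA-dTA1 and 4.03-fold in RelA-WT. In set 2 it was 2.63-fold in EV and 3.90-fold in RelA-dTAD, and 6.49-fold in RelA-dTA1 and 7.53-fold in RelA-WT. For Cxcl1 the 8 h ratio was 1.71 in set 1 and 7.20 in set 2 for EV, 3.57 and 11.3 for RelA-dTAD, 7.19 and 10.0 for RelA-dTA1, and 7.79 and 9.11 for RelA-WT. Within each set, EV and RelA-dTAD Cxcl5 at 8 h lay below RelA-WT, at 7.05% for EV in set 1 and 23.2% in set 2, and at 25.2 and 78.7 CPM for RelA-dTAD against 168 and 169 CPM for RelA-WT. Set 2 was sequenced deeper than set 1, and the part of depth in this difference was not tested.

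**Figure D4:**
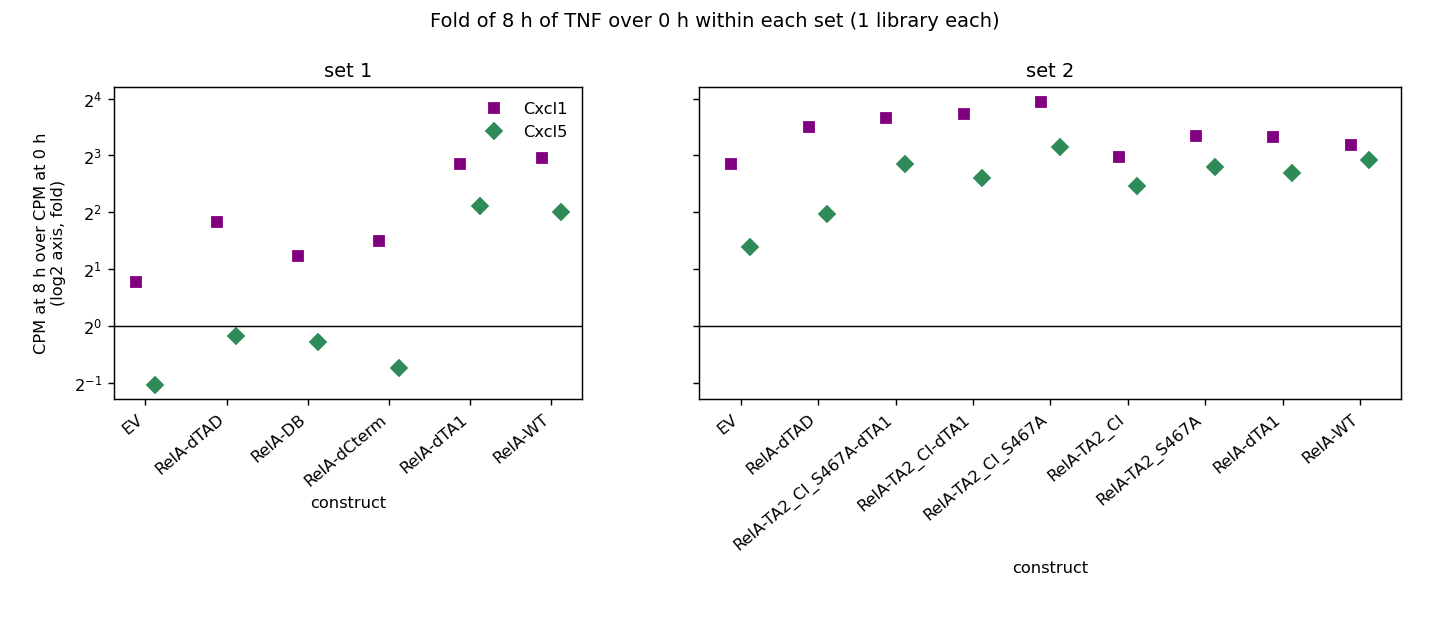
CPM at 8 h of TNF over CPM at 0 h of the same construct and set, on a log2 axis, for Cxcl1 (squares) and Cxcl5 (diamonds), 1 library at each time. The line marks 1. In set 1, 2 of 6 constructs have Cxcl5 above 1, and in set 2 all 9 do, from 2.63 to 8.91.

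Ordered by mean level over the 20 replicated groups, Cxcl1 ran from RelA-WT at 0.5 h (434 CPM) through RelA-WT at 1 h (208 ± 42.0) and RelA-dTA1 at 0.5 h (149) to EV at 0 h (6.10). The 5 highest groups did not overlap each other, while the libraries of 14 of the 19 neighbouring pairs did. Cxcl2 was highest in RelA-WT at 0.5 and 1 h, which overlapped each other, then in RelA-dTA1 at 0.5 h, and the libraries of 16 of 19 neighbouring pairs overlapped. Cxcl5 was highest in RelA-dTA1 at 8 h, then RelA-WT at 8 h, then RelA-WT at 1 h (95.5 ± 28.0), and 16 of 19 pairs overlapped. Per kilobase of counted length, RelA-WT at 0.5 h made 231 ± 46.7 CPM of Cxcl1, 9.75 ± 0.685 of Cxcl2 and 45.8 ± 4.05 of Cxcl5, and at 8 h 49.3 ± 4.97, 0.682 ± 0.145 and 90.4 ± 0.0908. Cxcl1 was thus the most abundant of the 3 per length at 0.5 h and Cxcl5 at 8 h.

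Genes of like pattern were ranked by Pearson's r of log2 CPM over the 55 group means, among 15090 genes. The points share libraries, times and depth, and 35 are single libraries, so r is a description. Closest to Cxcl1 were Nfkbiz (0.90), which encodes the IkB family member IkBzeta, Junb (0.90), an AP-1 subunit, Cxcl2 (0.89), Zfp36 (0.89), which encodes the mRNA decay factor tristetraprolin, and Map3k8 (0.87), which encodes the kinase TPL2. Closest to Cxcl2 were Tnfaip3 (0.95) and Nfkbia (0.94), whose products A20 and IkBalpha end NF-kB signalling, then Map3k8 (0.94), Sele (0.90), which encodes E-selectin, and Cxcl1 (0.89). Closest to Cxcl5 were Ptx3 (0.86), a soluble pattern recognition molecule, Gpr84 (0.84), a fatty acid receptor, Adamts4 (0.83), a matrix protease, Sod3 (0.83), the extracellular superoxide dismutase, and Tmbim6 (0.83). Cxcl5 ranked 17 for Cxcl1 and 29 for Cxcl2, and for Cxcl5 the ranks were 30 for Cxcl1 and 89 for Cxcl2.

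Of 11 other genes for CXC chemokines and receptors, 7 were tested. In RelA-WT 2, 3, 4 and 5 of them rose at 0.5, 1, 3 and 8 h, where 0.776, 2.55, 10.5 and 15.8% of all genes rose. The 3 that rose at 1 h were Cxcl9, Cxcl10 and Cxcl11. The Cxcl10 promoter, with a kB match at chr5:92349039, lies apart from the members. Cxcl3, Cxcl15, Ppbp and Cxcl13 were tested and not called at 1 h. At 1 h the median change of the 7 was 2.59, against 0.00 over all genes. This list and those of the next paragraphs were chosen with earlier results of these data known. Genes with few reads could also pass the filter through the groups where they were high, so these counts are a description. At the 4 TNF times 2, 4, 4 and 5 of the 7 were lower in EV than in RelA-WT (1.08, 2.96, 8.14 and 15.2% of all genes), and 1 was at 0 h (0.563%). Cxcl10, a T cell chemokine, was at 33.1 ± 1.71 CPM in EV and 449 ± 15.4 in RelA-WT at 1 h, and was lower in EV (difference -3.78 ± 0.21, edgeR adjusted p = 5.94e-12). Its RelA-WT level was highest at 3 h, unlike that of Cxcl1 or Cxcl2. Cxcl9 and Cxcl11, which act on the same receptor as Cxcl10, also rose in RelA-WT at 1 h, Cxcl11 not with DESeq2 (adjusted p = 0.166) nor without RelA-WT set 1 (edgeR adjusted p = 0.166) or set 2 (0.898). Without EV set 2 or RelA-WT set 2, 2 genes of this group were lower in EV at 1 h. Cxcl3 had 29 reads in RelA-WT at 8 h against 3 at 0 h, and rose there (edgeR adjusted p = 0.00192). The receptor genes Cxcr1 and Cxcr2 had 1 and 3 reads in all 75 libraries.

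Of 15 genes for neutrophil supply and recruitment, 12 were tested, and 7, 10, 12 and 10 rose in RelA-WT at the 4 TNF times, beside the same 0.776, 2.55, 10.5 and 15.8% of all genes. Their median change at 1 h was 3.62, against 0.00 over all genes. As above, the list was chosen with earlier results known, and its counts are a description. In EV, 8, 11, 11 and 8 were lower than in RelA-WT at these times (1.08, 2.96, 8.14 and 15.2% of all genes) and 4 at 0 h (0.563%). Il17ra, a subunit of the IL-17 receptor, was higher in EV at 8 h, as were 17.2% of all genes. Sele was at 2.93 ± 0.220 CPM in EV and 447 ± 10.2 in RelA-WT at 1 h, a difference of -7.29 ± 0.48 (edgeR adjusted p = 1.05e-10). Vcam1, an adhesion molecule, was lower in EV at 1 h (difference -3.42 ± 0.18), and so were the monocyte chemokine genes Ccl7 and Ccl2 (-4.40 ± 0.36 and -5.97 ± 0.47, edgeR adjusted p of 6.44e-09 or less). The colony stimulating factor gene Csf3, the interleukin gene Il1b and Lcn2 did not pass the filter on low counts.

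Of 10 genes that act on these mRNAs or promoters, all tested, 6, 6, 5 and 6 rose in RelA-WT at the 4 times, against 0.776, 2.55, 10.5 and 15.8% of all genes. In EV 3, 3, 1 and 2 were lower than in RelA-WT (5 at 1 h with a replicate block), against 1.08, 2.96, 8.14 and 15.2% of all genes. At 8 h 5 were higher in EV, where 17.2% of all genes were, among them Nfkbiz by 0.89 ± 0.25 (edgeR adjusted p = 0.00747). Zfp36 rose in RelA-WT by 4.90 ± 0.31 at 0.5 h and stood at 118 ± 14.2 CPM in EV and 427 ± 14.7 in RelA-WT. Zc3h12a, which encodes the nuclease regnase-1, was lower in EV at 1 h (difference -2.35 ± 0.24, edgeR adjusted p = 2.49e-07). Arid5a, an mRNA-binding protein gene, and Zfp36l1, a relative of Zfp36, rose in RelA-WT at 1 h by 1.99 ± 0.16 and 0.81 ± 0.09 and did not pass the test of EV against RelA-WT at that time (Arid5a did with a replicate block, edgeR adjusted p = 0.0331).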

How the data were processed

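Polyadenylated RNA was sequenced as single-end 50-base reads, per the labels' protocols, after a stranded library preparation with 12 PCR cycles from 1 µg of RNA. The submitters' processing notes name cutadapt 1.9.1, STAR, featureCounts 1.5.0, DESeq2 and mm10. The authors deposited non-normalised read counts per gene in 2 tables, called sets 1 and 2, which also number the replicates; whether reads were counted by strand is not given in the sources used here. From 45706 gene entries, 45143 were given a symbol. CPM used TMM factors over all 75 libraries. edgeR 4.0.16 (R 4.3.3) fitted a quasi-likelihood model to the 40 libraries of EV, RelA-dTAD, RelA-dTA1 and RelA-WT (20 residual degrees of freedom, robust, filterByExpr, Benjamini-Hochberg threshold 0.05), which left 13665 genes, the 3 members among them. The script was tested on simulated data first. A group with 3 or fewer reads of a gene was given a ratio of reads with an exact conditional binomial 95% interval, or a bound from a floor of 3 reads, which cover counting error only. Constructs with 1 library per time had no test, and a 2-fold rule was used.

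Alternatives were a replicate block, RLE scaling, DESeq2 1.42.0, no filter on low counts and leaving out each construct's libraries of 1 set. A construct left with 1 library at each time is then assumed to vary like the other groups. Deviations from the group means correlated between same-numbered groups at r = 0.353 to 0.662 (median 0.519, 190 pairs), so the set numbers pair the samples. The main model leaves this pairing out, and a call it misses is not a sign of equal levels. Other genes named were the 4 of each list with the smallest adjusted p in RelA-WT at 1 h, the 5 with a pattern most like each member, and, chosen after their values were seen, genes that a count turned on. The members and lists were chosen with earlier results of these data known. The blocks counted, promoters and motifs were read from the deposited tables and RefSeq (GRCm38.p6).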

Additional observations from a re-analysis of the deposited data

Results flagged for a closer look

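The response of Cxcl1 to TNF at 1 h, as the log2 change over 0 h, was smaller in EV than in RelA-WT by a tested difference of -3.54 (edgeR adjusted p = 0.0101), and smaller in RelA-dTAD than in RelA-WT by -3.22 (edgeR adjusted p = 0.0172). It was lower in both sets for each construct. Cxcl1 at 1 h was at 14.3 and 6.40 CPM in EV and 17.5 and 8.96 in RelA-dTAD, against 238 and 178 in RelA-WT. The comparisons share their RelA-WT libraries.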

How the results depend on the processing

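RLE scaling changed none of the calls reported here. DESeq2 called 5 of 36 differences of the TNF response from RelA-WT against 2 with edgeR, and both of these 2 were among the 5. Its other totals over the members equalled those of edgeR without being the same tests throughout. Of the 27 tests against 0 h that edgeR called, DESeq2 called 26, missing Cxcl5 in RelA-dTAD at 8 h (0.0577) and adding Cxcl5 in RelA-WT at 1 h (0.0449). Of the 18 against RelA-WT it called 17, with no adjusted p for Cxcl2 in RelA-dTA1 at 0.5 h, and added Cxcl1 in RelA-dTAD at 8 h (0.0362). With a replicate block, later against earlier TNF times gave 4 calls against 2, tests against 0 h gave 29 against 27 and tests against RelA-WT 22 against 18, and the other counts were equal; besides the calls gained that are given with each gene, the block changed no call of the members named. With no filter on low counts, 40 of 48 tests against 0 h and 30 of 45 against RelA-WT passed, against 27 and 18 with it. For RelA-dTAD against EV 4 of 15 passed and for RelA-dTA1 against RelA-dTAD 12 of 15, against 0 and 7. Of the differences of response 11 of 36 passed, and of later against earlier times 13 of 36, against 2 and 2. Without the filter edgeR gave far smaller adjusted p at nearly the same log2 change. For Cxcl1 in RelA-dTA1 against RelA-WT at 0.5 h, its adjusted p was 4.76e-25 at -1.56, against 0.384 at -1.55 with the filter. These counts are thus not on a level with those of the other fits, and the cause was not tested. Leaving out 1 set of 1 construct gave 0 to 2 calls for the differences of response, 0 to 2 for later against earlier times and 1 to 5 for RelA-dTA1 against RelA-dTAD. The Cxcl5 change at 8 h over 0 h ran from -0.99 to 1.39 in EV and from -0.19 to 1.97 in RelA-dTAD. For RelA-dTAD against EV at 8 h, Cxcl5 ran from -0.080 to 2.13. The -0.080 compares RelA-dTAD of set 1 with EV of both sets, although RelA-dTAD exceeded EV within each set. Zfp36l1 in EV against RelA-WT at 1 h ran from -0.31 to 0.052. Of these lowest and highest values, the 1.97 of RelA-dTAD passed the threshold. The 40 and 3 values past 2-fold of constructs with 1 library stayed at 40 and 3 under RLE scaling, plain library totals and a prior count of 2. Depth limits Cxcl2 most, with 0 reads in 22 and 3 or fewer in 36 of 75 libraries. Groups of 2 libraries limit all of the tests.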
